A study of Caenorhabditis elegans with 24 samples.

Results

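The genes described here are the sperm-specific families of Caenorhabditis elegans that carry the symbols msp, ssp, ssq, spch, nspd and nsph. A gene was a member when its WormBase symbol was 1 of these names followed by a number and when it held 10 or more counts in at least 3 of the 24 libraries. Of 46778 gene IDs in the table, 68 had such a symbol and 65 were members: 29 of 31 msp genes, 12 of 12 ssp, 9 of 10 nspd, 8 of 8 nsph, 4 of 4 ssq and 3 of 3 spch. The 3 symbols outside were msp-58 with 51 counts in all, of which 2 libraries reached the minimum, msp-32 with 42 counts and nspd-8 with 1 count. Just inside were msp-79 with 177 counts and 6 libraries at the minimum, and nsph-4.3 with 258 counts and 7 such libraries. The rule set no condition on stage or fraction. A gene of low counts can still enter through the groups where it is high. The 6 libraries of msp-79 at the minimum were those of other cells at early and late L4. For such a member the difference between groups is not free of the rule.

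The study sorted cells of wild-type hermaphrodites, grown at 20 °C on OP50 bacteria, by Venus fluorescence. Cells with Venus are labelled as the distal tip cell (DTC) fraction, and cells without it as other tissue, called other cells here. Each fraction was taken at late L3, early in L4, late in L4 and in adults, with 3 libraries of polyA RNA per fraction and stage, which gives 8 groups. All animals carried the Venus label on the DTC; the labels do not name its promoter. The DTC sits at the tip of each gonad arm, leads its growth and keeps germ cells beneath it in a stem-cell state.

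Major sperm protein (MSP) is the small protein that polymerises into the filaments by which nematode sperm crawl, in place of actin, and it also leaves the sperm as a signal that starts oocyte maturation and sheath contraction. The spch genes encode basic proteins of sperm chromatin, the ssp genes small proteins related to MSP, ssq genes are a further sperm-specific class, and nspd genes form a nematode-specific peptide family. Hermaphrodites make sperm for a limited time around the L4 stage and then switch to oocytes, and transcription of sperm genes takes place in spermatocytes, before the sperm mature. The DTC is a somatic cell.

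The members lay together in the genome (WBcel235, the assembly also called ce11). Chromosome IV held 36 of the 65, chromosome II 15, chromosome I 10, and chromosomes III and V 2 each; none lay on X. Of the 29 msp members, 12 were on chromosome II between positions 4785898 and 5810330, and 17 on chromosome IV. Members of several families shared 2 stretches of chromosome IV, 16 of them between 4994371 and 5316906 and 19 between 9689015 and 10951133. Transcripts were short: 47 of 65 members had a single exon, and 28 of the 29 msp genes had a coding length of 381 bases for 127 residues. The exception was msp-74 with 231 bases and 77 residues. Copies so alike share reads, so values of single msp, nspd and spch members are uncertain while sums over a family are less so. Reads of genes that overlap others cannot be assigned with certainty either, because the strand setting of the counting is not given in the sources used here. This applies to ssq-4, which overlaps T28H11.7 on the opposite strand, and to nsph-1.1, which overlaps pah-1 and K08F8.15.

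Total counts per library ran from 8391423 to 18045720. Levels are given in CPM, a gene's counts relative to the TMM-scaled library size. They are not shares of all counts, and ratios between groups depend on the scaling. Adult DTC replicate 1 had 0.116% of its counts in members, at 1879 CPM. Replicate 1 of other cells at early L4 had 1.26%, at 8876 CPM. In bulk samples fewer cells of a type and less RNA per cell cannot be told apart. Summed DTC markers ran from 29117 to 57100 CPM in DTC libraries of the 3 larval stages, against 1254 to 7527 CPM in other libraries, and from 2716 to 3826 CPM in adult DTC libraries, against 997 to 1569 CPM in other adult libraries. Replicate 3 of other cells at late L3 stood apart from its group: its sperm genes outside the member families summed to 1516 CPM against 138 and 118 CPM in replicates 1 and 2, and its hypodermis markers to 727 CPM against 4823 and 5307 CPM. It is given apart below, and each result that rests on it is given with all 24 libraries and without it. The labels do not say whether the replicates came from separate cultures, and p-values therefore reflect library-to-library spread alone. Fold changes are log2 values from edgeR's quasi-likelihood test. The value after ±, called the standard error here, is the size of the log2 value divided by the square root of its F statistic. It is approximate, most of all near 0 counts. A member was called when its Benjamini-Hochberg adjusted p over all genes tested was under 0.05.

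Sperm-family RNA was scarce at late L3, abundant from early L4, at its height at late L4 and lower again in adults, and through L4 it was higher in other cells than in DTC libraries. At late L3 the 65 members summed to 179, 118 and 172 CPM in DTC libraries, against 14.4 and 31.04 CPM in replicates 1 and 2 of other cells and 3286 CPM in replicate 3. At early L4 they summed to 2707, 2437 and 1240.25 CPM in DTC libraries, against 8876, 5869 and 6019 CPM in other cells. The late L4 sums were 5940.4, 5587 and 2355 CPM in DTC libraries, against 13210.4, 12408 and 31345 CPM in other cells. All DTC libraries lay below all other libraries at both L4 stages, and the sum in other cells at late L4 was 1.48%, 1.42% and 3.29% of all counts. Adult sums were 1879, 2059 and 1664 CPM in DTC libraries and 2793, 2017 and 579 CPM in other cells, where the ranges overlapped. Of the 65 members, 61 had their highest group mean in other cells at late L4, or 56 without replicate 3 of that group, the library of 31345 CPM. The other 4 were msp-74 and ssp-32, highest in other cells at early L4, ssp-37, highest in adult DTC libraries, and nsph-4.3, highest in DTC libraries at late L3.

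**Figure D1:**
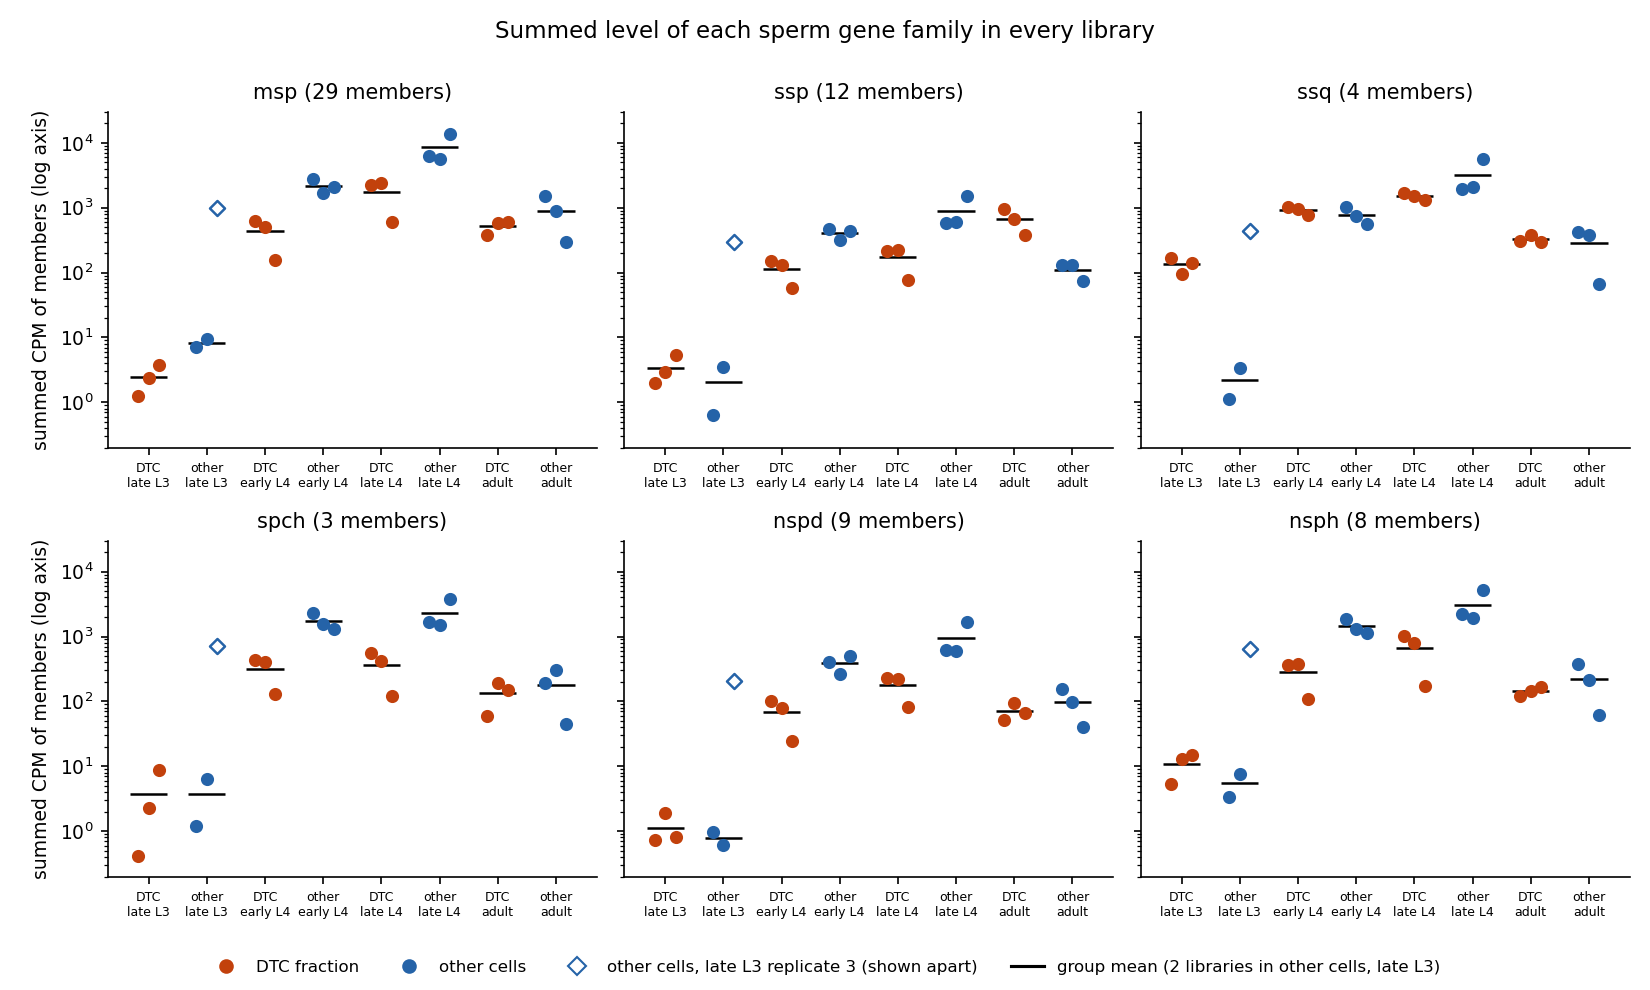
Summed CPM of each family (panels, log axis) in each of the 24 libraries by stage, with DTC libraries left of other libraries at each stage; points are libraries and bars are group means (of replicates 1 and 2 in other cells at late L3). Other cells are low in every family at late L3, except for replicate 3 (drawn apart), and have their highest mean at late L4; for spch that rests on replicate 3, since replicates 1 and 2 average 1603 CPM at late L4, against 1727 CPM over the early L4 libraries. The ssq panel is the one where DTC libraries are already high at late L3, at 169, 95.4 and 139 CPM.

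Among the msp genes the 2 with the highest mean over the libraries were msp-40 (chromosome II, 4825414 to 4825797) and msp-31 (chromosome II, 4916179 to 4916562, minus strand). At late L3 msp-40 had 0, 0 and 0.335 CPM in DTC libraries, against 0 and 0.412 CPM in replicates 1 and 2 of other cells and 163 CPM in replicate 3. It had 84.5, 70.5 and 23.5 CPM in DTC libraries at early L4, against 409, 258 and 313 CPM in other cells. By late L4 its levels were 218.5, 199 and 48.95 CPM in DTC libraries and 624, 519 and 1376 CPM in other cells. The fractions did not overlap at either L4 stage, and DTC replicate 3 was the lowest library each time. Adult levels of msp-40 were 40.2, 40.8 and 61.5 CPM in DTC libraries and 133, 61.2 and 21.9 CPM in other cells, which overlapped. For msp-31 the early L4 levels were 78.5, 65.6 and 18.7 CPM in DTC libraries and 356, 212 and 253 CPM in other cells. Its late L4 levels were 226, 237 and 56.0 CPM in DTC libraries, against 585, 531 and 1284 CPM in other cells, again without overlap. At late L3 it had 0, 0.067 and 0.268 CPM in DTC libraries, against 0.513 and 1.24 CPM in replicates 1 and 2 of other cells and 129 CPM in replicate 3. In adults msp-31 stood at 26.4, 65.4 and 52.3 CPM in DTC libraries and at 135, 85.5 and 21.2 CPM in other cells, which overlapped.

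Over all 29 msp genes the sums told the same order. They were 624, 507 and 159 CPM in DTC libraries at early L4, against 2756, 1688 and 2059 CPM in other cells, and 2252, 2396 and 595 CPM at late L4, against 6146, 5691 and 13737 CPM. Per kilobase of exon, msp-40 and msp-31 were the highest of the 12 members given library by library in other cells at late L4, at 2187 and 2084 CPM per kb, with spch-1 next at 1693 CPM per kb and ssq-2 and ssp-37 lowest, at 575 and 66.7 CPM per kb.

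The chromatin genes spch-1 (chromosome IV, 10110818 to 10111541, minus strand) and spch-3 (chromosome I, 6098927 to 6099731) were already high at early L4. There spch-1 had 216, 195 and 63.6 CPM in DTC libraries, against 1159, 736 and 663 CPM in other cells. At late L4 it had 319, 237 and 55.7 CPM in DTC libraries and 875, 775 and 1778 CPM in other cells. In other cells the late L4 range of spch-1 overlapped its early L4 range, while the ranges of msp-40 did not overlap. For spch-3 the levels were 184, 180.4 and 54.3 CPM in DTC libraries at early L4 against 1019, 708 and 562 CPM in other cells, and 218, 164 and 57.6 CPM at late L4 against 734, 688 and 1728 CPM. At late L3 spch-1 had 0.259, 2.29 and 3.49 CPM in DTC libraries, against 0.285 and 1.44 CPM in other cells and 355 CPM in replicate 3; spch-3 had 0.155, 0 and 5.16 CPM against 0.342 and 3.61 CPM, and 306 CPM in replicate 3. Both were lower in adults than at late L4 in other cells, with spch-1 at 22.998, 95.2 and 80.4 CPM in DTC libraries against 76.9, 189 and 24.7 CPM in other cells. Adult spch-3 levels were 31.6, 84.5 and 58.0 CPM in DTC libraries and 106, 98.8 and 13.7 CPM in other cells.

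The nspd family was led by a pair of genes of equal coding length, nspd-1 (chromosome I, 6097579 to 6097791, minus strand) and nspd-2 (chromosome IV, 9844060 to 9844272). The early L4 levels of nspd-1 were 28.1, 21.8 and 5.32 CPM in DTC libraries and 116, 76.9 and 147 CPM in other cells, and its late L4 levels 43.5, 40.8 and 17.2 CPM against 133, 139.7 and 340.1 CPM. For nspd-2 they were 20.0, 16.1 and 6.02 CPM against 75.5, 44.2 and 86.9 CPM at early L4, and 54.3, 54.2 and 20.6 CPM against 152, 135 and 393 CPM at late L4. Neither gene's fractions overlapped at the L4 stages. At late L3 nspd-1 had 0.052, 0 and 0.268 CPM in DTC libraries against 0 and 0.155 CPM in other cells and 68.3 CPM in replicate 3, and nspd-2 had 0.207, 1.28 and 0.134 CPM against 0 and 0.103 CPM and 41.02 CPM. In adults the DTC values were 12.1, 14.2 and 17.4 CPM for nspd-1 against 37.4, 25.4 and 5.58 CPM in other cells, and 12.1, 20.0 and 11.4 CPM for nspd-2 against 39.4, 18.1 and 16.7 CPM, all overlapping.

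In the nsph family nsph-3.2 (chromosome IV, 10112870 to 10114287) and nsph-3.1 (chromosome IV, 10949810 to 10951133) stood highest. At early L4 nsph-3.2 had 170.5, 183 and 59.6 CPM in DTC libraries, against 868, 604 and 561 CPM in other cells. At late L4 it had 511, 353 and 87.7 CPM in DTC libraries and 1110.1, 874 and 2270.3 CPM in other cells. The fractions were apart at both stages. For nsph-3.1 the values were 135, 148 and 27.9 CPM against 764, 536 and 425 CPM at early L4, and 394, 284 and 47.9 CPM against 721, 703 and 1946 CPM at late L4. In adults nsph-3.2 had 49.4, 46.1 and 58.0 CPM in DTC libraries against 149.9, 83.5 and 29.7 CPM in other cells, and nsph-3.1 had 42.4, 40.5 and 73.6 CPM against 147, 76.1 and 24.7 CPM. Both overlapped between the fractions in adults. At late L3 nsph-3.2 was at 0, 1.01 and 8.45 CPM in DTC libraries against 0 and 0.103 CPM in other cells and 336 CPM in replicate 3. The late L3 values of nsph-3.1 were 0, 0.807 and 0.201 CPM in DTC libraries, against 2.22 and 3.20 CPM in other cells and 247 CPM in replicate 3.

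Of the ssp genes, ssp-16 (chromosome I, 6102067 to 6102396) followed the common course. It had 64.4, 54.6 and 15.02 CPM in DTC libraries at early L4 against 242, 191 and 246 CPM in other cells, and 74.6, 58.9 and 14.8 CPM at late L4 against 221, 187 and 493 CPM. At late L3 the DTC values were 0.362, 0 and 1.34 CPM, against 0.570 and 2.53 CPM in other cells and 215 CPM in replicate 3. Adult levels were 13.6, 32.8 and 20.4 CPM in DTC libraries and 23.3, 30.1 and 1.14 CPM in other cells, which overlapped.

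At late L3, with all 24 libraries, 0 members were called higher and 45 lower in DTCs than in other cells, where 13.4% of all genes were called and 7.33% were called lower; 26 of the 45 were msp genes, 6 nspd, 4 nsph, 4 ssp, 3 spch and 2 ssq. That count rests on replicate 3 of other cells. Without it 2 members were called lower and 4 higher, and 8.65% of all genes were called. The lowest adjusted p values among the 45 belonged to spch-2, at 0 counts in DTC libraries and at least 354-fold lower (adjusted p = 0.00129), msp-50 at -4.90 ± 0.93 (adjusted p = 0.00153) and msp-31 at -8.60 ± 1.77 (adjusted p = 0.00317). Of these spch-2 and msp-50 were still called without replicate 3, spch-2 at least 15.5-fold lower (adjusted p = 0.00238) and msp-50 at -2.95 ± 0.70 (adjusted p = 0.0117). With all 24 libraries the median log2 difference over the 65 members at late L3 was -6.50, against -0.03 over all genes. It was -5.82 with members near 0 counts at their bound. Without replicate 3 the median was 5.1e-15, against 0.15 over all genes. With members at their bound it was then 0.16, leaving out 21 members with 3 or fewer counts in both fractions.

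At early L4 edgeR called 0 members in either direction with all 24 libraries, while 9.40% of all genes were called higher and 1.65% lower; 5 members had an unadjusted p under 0.05, and DESeq2 called 0 higher and 2 lower. At late L4 it again called 0, while 9.19% of all genes were called higher and 2.61% lower, with 6 at an unadjusted p under 0.05 and 3 called by DESeq2, all lower. For 59 of 65 members at early L4 and 61 at late L4, every DTC library lay below every library of other cells. The share of all genes apart in this way is not given here, so these counts do not set the members apart from other genes. The median log2 differences of the members were -2.31 and -2.32, against -0.35 and -0.14 over all genes. Without replicate 3 of other cells at late L3 the standard errors were smaller, 0.75 for msp-40 at early L4 against 1.43 with it, and 25 members were called lower and 1 higher at early L4, beside 11.9% of all genes in either direction and 1.92% lower, and 31 lower and 0 higher at late L4, beside 12.7% and 3.57%. Examples without it were msp-50 at -2.30 ± 0.59 (adjusted p = 0.0126), nsph-4.2 at -2.51 ± 0.68 (adjusted p = 0.0201), msp-77 at -2.67 ± 0.72 (adjusted p = 0.0203) and msp-40 at -2.34 ± 0.75 (adjusted p = 0.0481) at early L4. At late L4 they were spch-2 at -2.55 ± 0.61 (adjusted p = 0.00862), msp-78 at -2.53 ± 0.64 (adjusted p = 0.0133), msp-38 at -2.50 ± 0.66 (adjusted p = 0.0152) and msp-40 at -2.44 ± 0.76 (adjusted p = 0.0390). The genes spch-1 and nsph-3.2 had like values at early L4 but were not called, at -2.32 ± 0.83 (adjusted p = 0.0794) and -2.19 ± 0.94 (adjusted p = 0.155).

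The distance between the fractions was much alike for most members, but not for all. The mean in DTC libraries divided by the mean in other cells had a median of 0.201 over the 65 members at early L4 and of 0.200 at late L4. It ran from 0 to 4.61 at early L4 and from 0.0964 to 0.919 at late L4. All 29 msp genes lay between 0.141 and 0.265 at early L4 and between 0.134 and 0.244 at late L4, and the 3 spch genes between 0.183 and 0.200 and between 0.139 and 0.179. Sperm genes of other families, a list of spe, fer, gsp and related genes with 39 in the table, had medians of 0.214 at early L4 and 0.200 at late L4. In that list, spe-29 had the highest ratios, at 9.20 and 8.73, and was the only listed gene called higher in DTCs at both stages, by 3.19 ± 0.92 (adjusted p = 0.0280) and 3.10 ± 0.94 (adjusted p = 0.0349) with all 24 libraries. In adults the members' median ratio was 0.652 over the 64 with counts in other cells, highest for ssp-37 at 19.5, and that of the sperm list 0.823.

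**Figure D2:**
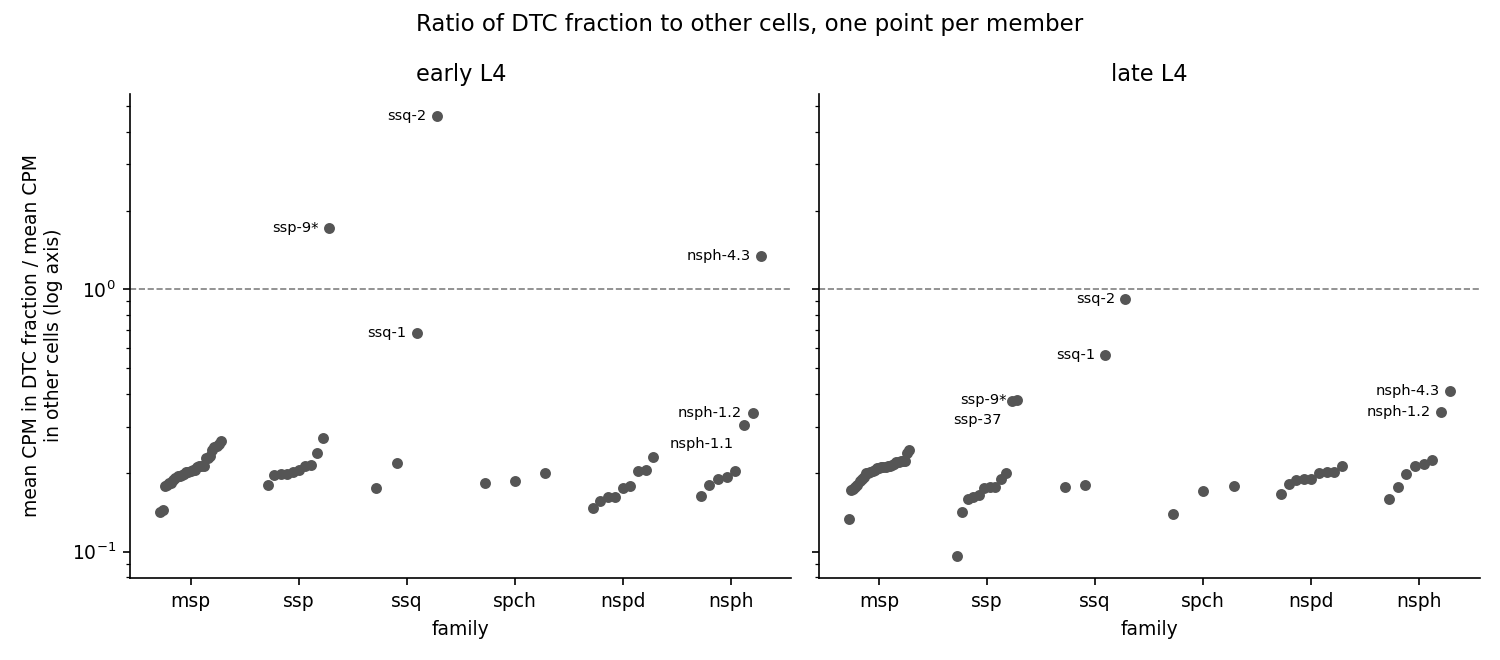
Mean CPM in DTC libraries divided by mean CPM in other cells for each member, by family, at early L4 and late L4 (log axis, points are members, the dashed line marks a ratio of 1, the star marks the ssp-9 copy WBGene00006038). Most members sit near 0.20 at the L4 stages, while ssq-2 reaches 4.61 at early L4 and 0.919 at late L4; ssp-37 is not drawn at early L4, where it had 0 counts in DTC libraries.

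A set of 7 members departed from this common ratio, and they were picked out after their values were seen. Without them the other 58 lay between 0.141 and 0.271 at early L4 and between 0.0964 and 0.244 at late L4. These narrower ranges follow from picking members by this ratio. The lowest at late L4, ssp-36 at 0.0964, was kept among the 58. The 7 were ssq-1, ssq-2, ssp-37, nsph-4.3, nsph-1.1, nsph-1.2 and the ssp-9 copy WBGene00006038; a further ID, WBGene00006040, carries the same symbol and kept to the common ratio.

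The gene ssq-2 (chromosome IV, 4996142 to 4997559) had more RNA in DTC libraries than in other cells before late L4. At late L3 it had 114, 58.7 and 84.0 CPM in DTC libraries, against 0 and 0.155 CPM in replicates 1 and 2 of other cells and 49.7 CPM in replicate 3. At early L4 it had 725, 699 and 591 CPM in DTC libraries and 186, 150.4 and 101 CPM in other cells. The lowest DTC library was above the highest other library at both stages, replicate 3 included. Late L4 levels were 692, 632 and 761 CPM in DTC libraries and 428, 522 and 1318 CPM in other cells, which overlapped, and adult levels were 161, 172 and 136 CPM in DTC libraries and 89.1, 124 and 3.82 CPM in other cells, which did not. With all 24 libraries the difference was 2.36 ± 1.31 at late L3 (adjusted p = 0.230) and 2.20 ± 1.30 at early L4 (adjusted p = 0.312), neither called. Without replicate 3 of other cells at late L3 it was called at both: the ratio at late L3 was 1086 with a 95% counting interval of 371 to 5270 (adjusted p = 8.65e-05), from 4335 counts in DTC libraries and 3 in other cells, and the difference at early L4 was 2.31 ± 0.70 (adjusted p = 0.0361).

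Of the same family, ssq-1 (chromosome IV, 9852550 to 9853609) was also present in every DTC library at late L3. It had 54.9, 36.7 and 50.8 CPM in DTC libraries at late L3, against 0 and 0 CPM in replicates 1 and 2 of other cells and 81.6 CPM in replicate 3, which lay above the DTC libraries. Without replicate 3 it was at least 593-fold higher in DTCs (adjusted p = 1.50e-06); with it the difference was 0.80 ± 1.28 (adjusted p = 0.703). At early L4 it had 197, 153 and 135 CPM in DTC libraries and 319.9, 219.9 and 169 CPM in other cells, overlapping, and at late L4 597, 531 and 473 CPM against 648, 650.1 and 1560 CPM, where all DTC libraries were lower but the difference of -0.84 ± 1.28 was not called (adjusted p = 0.710). Adult levels were 62.2, 79.7 and 73.4 CPM in DTC libraries and 148, 107 and 26.4 CPM in other cells. The remaining ssq genes, ssq-3 and ssq-4, kept to the common ratio, at 0.174 and 0.218 at early L4 and 0.176 and 0.180 at late L4.

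Together ssq-1 and ssq-2 made up 94.5%, 81.0% and 78.2% of all member counts in DTC libraries at late L3, against 0% and 0.498% in replicates 1 and 2 of other cells and 3.99% in replicate 3. Their share was 34.1%, 35.0% and 58.5% in DTC libraries at early L4, against 5.70%, 6.31% and 4.47% in other cells, and 21.7%, 20.8% and 52.4% at late L4, against 8.14%, 9.45% and 9.18%. The DTC share exceeded every share in other cells at all 3 larval stages. In adults it was 11.9%, 12.2% and 12.6% in DTC libraries, against 8.48%, 11.4% and 5.21% in other cells.

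**Figure D3:**
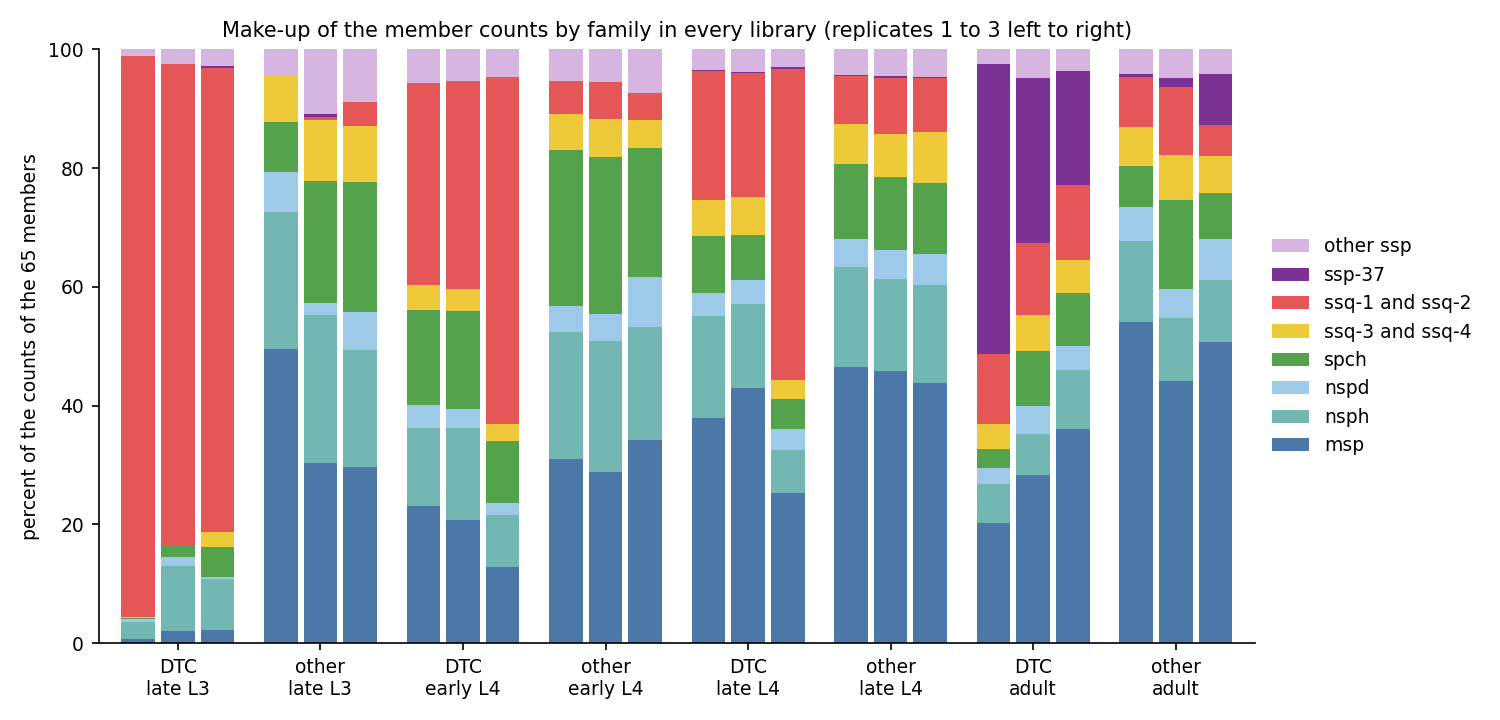
Share of all member counts taken by each family in each library, stacked to 100%, with DTC libraries left of other libraries at each stage and replicates 1 to 3 from left to right; ssq and ssp are split into the members that departed and the rest. DTC libraries at late L3 are mostly ssq, by 94.6%, 81.0% and 80.7%, and adult DTC libraries carry 51.2%, 32.6% and 22.9% of ssp counts, against 4.63%, 6.39% and 12.8% in other adult libraries.

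The ssp-9 copy WBGene00006038 (chromosome IV, 4994371 to 4994700, minus strand) lies 1441 bases from ssq-2 and shared part of its course. It had 1.55, 2.15 and 3.08 CPM in DTC libraries at late L3, against 0 and 0 CPM in replicates 1 and 2 of other cells and 6.73 CPM in replicate 3. At early L4 it had 39.2, 36.96 and 29.6 CPM in DTC libraries, above 27.97, 16.7 and 17.2 CPM in other cells, and at late L4 32.9, 32.8 and 22.6 CPM, below 51.2, 48.3 and 133 CPM. The adult values, 12.5, 11.3 and 12.3 CPM in DTC libraries and 13.5, 13.7 and 2.07 CPM in other cells, overlapped. Its early L4 difference of 0.77 ± 1.08 was not called (adjusted p = 0.680), nor was that at late L4, at -1.39 ± 1.096 (adjusted p = 0.425). At late L3 it was at least 27.1-fold higher in DTCs without replicate 3 (adjusted p = 0.000276), and at 0.00 ± 1.24 with it. The other ssp-9 copy, WBGene00006040, lies 1925 bases from ssq-2 and did not share the course of ssq-2. Its ratios of DTC to other cells were 0.179 at early L4 and 0.176 at late L4.

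Replicate 3 of the DTC libraries at both L4 stages was low for most members. The split between the members on the common ratio and the rest used means that include these libraries. A contrast between them in replicate 3 is therefore not free of that split. At early L4 the 58 members on the common ratio had a median of 0.292 in replicate 3 relative to the mean of replicates 1 and 2, and at late L4 a median of 0.273, with the highest values at 0.952 for msp-63 and 1.37 for ssp-32. The same ratio was 0.829 and 1.15 for ssq-2, 0.770 and 0.838 for ssq-1, and 0.776 and 0.689 for the ssp-9 copy WBGene00006038. It was 1.15 and 2.04 for nsph-4.3, 1.14 and 0.455 for nsph-1.2 and 0.218 and 0.0129 for nsph-1.1, and 0.750 at late L4 for ssp-37. Markers of muscle were also low in replicate 3, summing to 3914, 5527 and 1829 CPM in the DTC libraries at early L4 and to 10940, 8032 and 2753 CPM at late L4. Coelomocyte markers were low there too, at 135, 214 and 30.7 CPM and at 81.0, 98.4 and 19.7 CPM. The part of either in the result was not tested. Sums of the other marker lists, germline and oocyte among them, are not given for these libraries. The sums given here therefore do not single out a cell type.

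**Figure D4:**
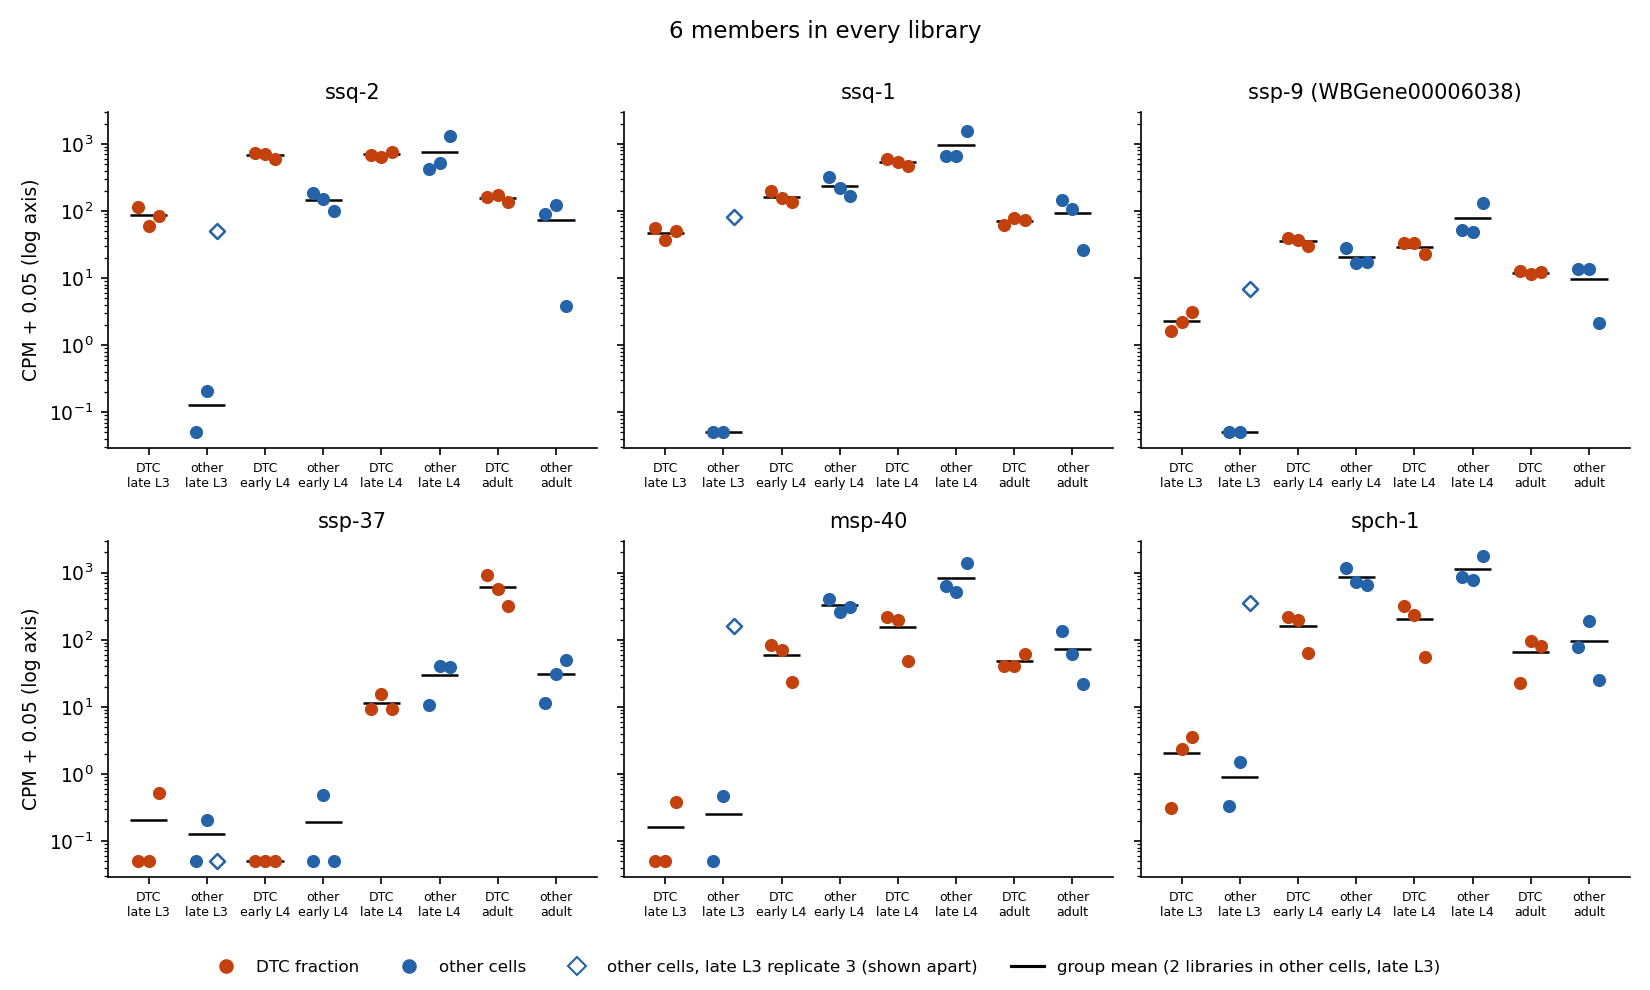
CPM of 6 members (panels, log axis) in each library by stage, DTC libraries left of other libraries, with a pseudocount of 0.05 CPM so that libraries at 0 are drawn. The ssq-2 and ssq-1 panels show DTC libraries at 36.7 CPM or more at late L3, the msp-40 panel shows all 3 at or under 0.335 CPM, and the ssp-37 panel shows 319 to 915 CPM in adult DTC libraries.

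A different course was taken by ssp-37 (chromosome I, 12561040 to 12561560, minus strand). It had 0 counts in all DTC libraries at early L4 and 0, 0.431 and 0 CPM in other cells, with 0, 0 and 0.469 CPM in DTC libraries and 0, 0.155 and 0 CPM in other cells at late L3. At late L4 it had 9.10, 15.5 and 9.23 CPM in DTC libraries, against 10.6, 39.99 and 39.7 CPM in other cells, which overlapped. Adult levels were 915, 573 and 319 CPM in DTC libraries and 11.5, 31.2 and 49.9 CPM in other cells, so that every DTC library was above every other library. The adult difference was 4.29 ± 1.00 (adjusted p = 0.00971), and ssp-37 was the 1 member called there, beside 13.3% of all genes. Leaving out DTC adult replicate 1 or other adult replicate 1 ended the call, at 3.74 and 3.77. Between late L4 and adult the DTC step exceeded that in other cells by 5.70 ± 1.33 (adjusted p = 0.0184), the 1 member called of 65 beside 7.14% of all genes, and this call was lost without DTC late L4 replicate 3. It was again the 1 member called when replicate 3 of other cells at late L3 was left out, beside 7.62%. In the adult DTC libraries ssp-37 made up 48.7%, 27.8% and 19.2% of member counts, against 0.411%, 1.55% and 8.61% in other cells. The sum of the intestine markers was also high in these libraries, at 127489, 31437 and 152190 CPM in adult DTC libraries against 6447, 14320 and 26647 CPM in other adult libraries. Of its 6 genes, 1 was called higher and 0 lower in adult DTCs, beside 13.3% of all genes called. Replicate 3 of the adult DTC libraries had the lowest ssp-37 level and the highest intestine sum. The part of these markers in the result was not tested. Without replicate 3 of other cells at late L3 msp-63 was also called in adults, at 0 counts in DTC libraries, 37 in other cells and at least 7.90-fold lower (adjusted p = 0.0250), which with ssp-37 made 1 higher and 1 lower beside 13.2% of all genes.

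The nsph genes among the 7 were low. For nsph-1.2 the ratio of DTC to other cells was 0.338 at early L4 and 0.342 at late L4, and 286 counts fell in DTC libraries at late L3. For nsph-1.1 it was 0.304 and 0.212. The gene nsph-4.3 had 61 counts in DTC libraries and 0 in other cells at late L3. With all 24 libraries it was at least 24.3-fold higher in DTCs there but was not called (edgeR, adjusted p = 0.117). Without replicate 3 of other cells at late L3, 1 nsph gene was called higher in DTCs at that stage, beside 8.65% of all genes called.

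Along the stages in DTCs, 32 members rose and 0 fell from late L3 to early L4, where 2.00% of all genes were called and 1.79% rose. This count rests on single libraries. It was 0 without DTC late L3 replicate 1 or replicate 2, 9 without its replicate 3, 2 and 3 without DTC early L4 replicates 1 and 2, and 14 with a replicate block. Without replicate 3 of other cells at late L3 it was 55 and 0, beside 4.69% called and 4.34% higher. The 32 were 19 msp, 5 nspd, 4 nsph, 2 ssp, 1 ssq and 1 spch gene. In DTC libraries spch-2 was at 0 counts at late L3 and at least 366-fold higher at early L4 (adjusted p = 0.0119), msp-50 rose by 5.33 ± 0.94 (adjusted p = 0.0112), msp-49 by 7.45 ± 1.44 (adjusted p = 0.0177), msp-31 by 8.91 ± 1.79 (adjusted p = 0.0204), nsph-3.1 by 8.29 ± 1.70 (adjusted p = 0.0216) and msp-40 by 9.04 ± 2.09 (adjusted p = 0.0330). Each of these 6 calls was lost without DTC late L3 replicate 1, where their adjusted p ran from 0.0784 to 0.182. The already present ssq-1 and ssq-2 had differences of 1.77 ± 1.31 and 2.97 ± 1.34, which were not called (adjusted p = 0.504 and 0.259); without replicate 3 they were 1.80 ± 0.45 (adjusted p = 0.0261) and 3.00 ± 0.72 (adjusted p = 0.0187). In other cells the step from late L3 to early L4 gave 0 calls with all 24 libraries, beside 0.201% of all genes higher and 0.160% lower, with 25 members at an unadjusted p under 0.05 and 6 called by DESeq2. Without replicate 3, 59 members rose and 0 fell, beside 7.85% of all genes called and 5.96% higher, among them ssq-1 at least 2912-fold higher (adjusted p = 1.12e-06), the ssp-9 copy WBGene00006038 at least 254-fold higher (adjusted p = 3.77e-05) and msp-142 at least 775-fold higher (adjusted p = 7.2e-05).

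Between late L3 and early L4, DTCs and other cells differed in their step for 0 members with all 24 libraries, beside 0.438% of all genes with a larger and 0.0592% with a smaller DTC step, with 31 at an unadjusted p under 0.05 and 12 called by DESeq2, all higher. Without replicate 3, 3 members had a smaller step in DTCs, beside 1.09% of all genes, and these were ssq-1, ssq-2 and the ssp-9 copy WBGene00006038.

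From early to late L4 the ratio differed widely among members, and the ranges of the families overlapped; no difference between families was tested. The ratio of the late L4 mean to the early L4 mean in other cells had a median of 3.29 over the 65 members. It was 4.56 over the 29 msp genes, from 0.553 to 19.1, against 1.05 to 1.38 for the 3 spch genes and medians of 2.02 for nsph, 2.12 for nspd, 3.25 for ssp and 4.26 for ssq. These ratios are raised by replicate 3 of other cells at late L4. Without it the median was 2.14 over the 65, 3.32 over the msp genes, 1.74 for nsph, 1.49 for nspd, 1.99 for ssp and 2.72 for ssq, and the 3 spch genes were all below 1, from 0.603 for spch-2 to 0.967 for spch-1. In other cells the msp genes took 46.5%, 45.9% and 43.8% of member counts at late L4, against 31.05%, 28.8% and 34.2% at early L4. The spch genes took 12.7%, 12.3% and 11.9% at late L4, against 26.2%, 26.4% and 21.7% at early L4. Replicate 3 of other cells at late L3 had 29.6% msp and 21.8% spch counts, which lies beside the early L4 shares, and its members had a median of 0.430 of their early L4 mean in other cells. In DTC libraries the ratios had a median of 2.99 over the 64 members with counts at early L4.

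The highest ratio apart from ssp-37 was that of msp-65, and the lowest those of ssp-32 and msp-74. In other cells msp-65 had 79.7, 78.3 and 152 CPM at late L4, against 6.75, 3.88 and 5.63 CPM at early L4. In DTC libraries it had 26.3, 41.6 and 7.69 CPM at late L4, against 2.16, 1.46 and 0.548 CPM at early L4. It rose in both fractions, by 4.25 ± 1.02 in other cells (adjusted p = 0.0303) and by 4.17 ± 1.03 in DTCs (adjusted p = 0.0199). The call in other cells was lost when any 1 of the 6 libraries compared was left out, with adjusted p from 0.0548 to 0.154, and the call in DTCs without any 1 of the early L4 libraries or late L4 replicate 2, with adjusted p from 0.0598 to 0.121. The late to early ratio was 0.418 for ssp-32 in other cells and 0.300 in DTC libraries, and 0.553 and 0.523 for msp-74. In both fractions the same 2 members were called, msp-65 and ssp-37, both higher, beside 2.09% of all genes in other cells and 5.57% in DTCs. For ssp-37 the rise was 7.62 ± 1.24 in other cells (adjusted p = 0.00166) and at least 162-fold in DTCs, with 0 counts at early L4 (adjusted p = 0.00144). When replicate 3 of other cells at late L3 was left out, 13 members were called in each fraction, all higher, beside 2.74% of all genes called and 2.46% higher in other cells, and 5.68% and 4.10% in DTCs; 11 of the 13 were msp genes in each. The fractions differed in this step for 0 members, beside 0.166% of all genes with a larger and 0.213% with a smaller DTC step; 0 members had an unadjusted p under 0.05 and DESeq2 called 0. The count was also 0 with replicate 3 left out, beside 0.147% and 0.254%, with 2 members at an unadjusted p under 0.05.

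**Figure D5:**
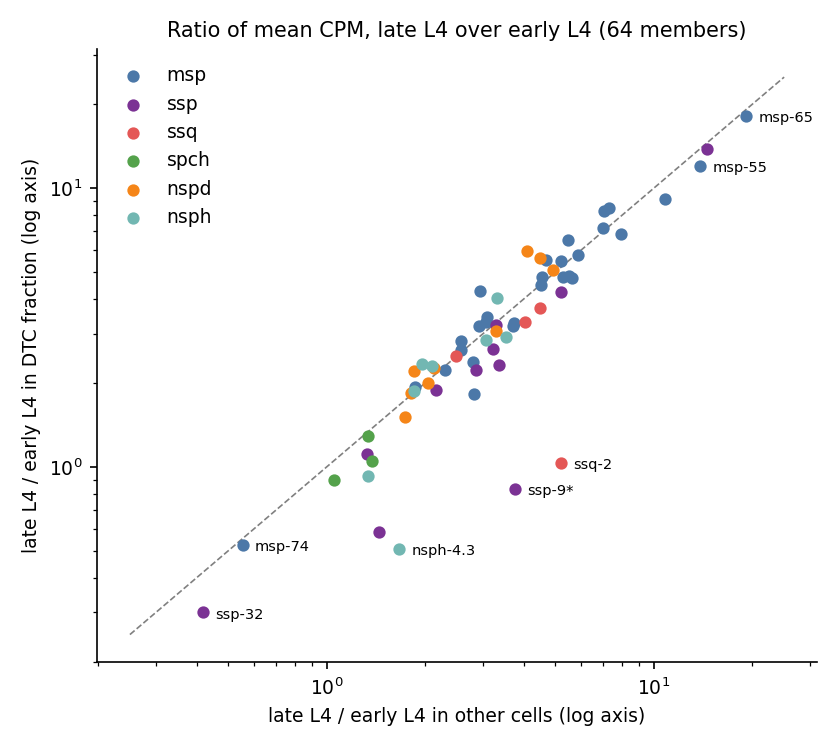
Late L4 mean divided by early L4 mean for each of 64 members, in DTC libraries (vertical, log axis) against other cells (horizontal, log axis), coloured by family; the dashed line marks equal ratios. The msp genes reach 19.1 and 18.1 with msp-65, the spch genes lie near 1, and ssq-2 and the ssp-9 copy WBGene00006038 lie below the line, at 1.03 and 0.835 in DTC libraries against 5.19 and 3.75 in other cells; ssp-37, with 0 counts at early L4 in DTC libraries, is not drawn.

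Adult levels of most members were below those of late L4 in other cells, where the sums above did not overlap. In other cells 1 member, msp-50, was called lower in adults than at late L4 with all 24 libraries, at -3.01 ± 0.81 (adjusted p = 0.0335), beside 6.71% of all genes and with 57 members at an unadjusted p under 0.05. This call was lost without any 1 of the late L4 libraries or adult replicates 2 and 3, with adjusted p from 0.0513 to 0.0974. It had 129, 77.9 and 26.2 CPM in other adult libraries, against 493, 402 and 991 CPM at late L4. Without replicate 3 of other cells at late L3, 53 members fell and 0 rose, beside 10.2% of all genes called and 7.93% lower, among them ssq-1 at -3.41 ± 0.48 (adjusted p = 0.000919), spch-2 at -3.57 ± 0.63 (adjusted p = 0.00323) and msp-78 at -3.72 ± 0.68 (adjusted p = 0.0037). In DTCs 1 member rose and 1 fell with all libraries, beside 12.8% of all genes. They were ssp-37, by 5.74 ± 1.08 (adjusted p = 0.00186), and msp-63, at 0 counts in adults against 51 at late L4 and at least 11.8-fold lower (adjusted p = 0.0424). The msp-63 call was lost when any 1 of the 6 libraries was left out, with adjusted p from 0.0638 to 0.113, and without the filter on low counts (adjusted p = 0.0562). Without replicate 3 the counts were 1 and 6, beside 12.9% called and 6.56% lower, and ssq-1 and ssq-2 were among the 6, at -2.93 ± 0.47 (adjusted p = 0.000512) and -2.20 ± 0.70 (adjusted p = 0.0443).

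Other genes of the sperm programme were counted from lists. Of 38 tested sperm genes outside the member families, 1 was called higher and 7 lower in DTCs at late L3, 1 higher and 0 lower at each L4 stage, and 0 higher and 1 lower in adults, with medians of -2.06, -2.21, -2.34 and -0.08. Over all genes 13.4% were called and 7.33% lower at late L3, 9.40% higher and 1.65% lower at early L4, 9.19% higher and 2.61% lower at late L4, and 13.3% called in adults. The gene higher at the 3 larval stages was spe-29, also named above, at late L3 with 578 counts in DTC libraries and 42 in other cells (adjusted p = 0.00925), and the lower ones of least adjusted p were gsp-3, a sperm phosphatase, at -6.55 ± 1.66 (adjusted p = 0.0131), msd-2 at -8.15 ± 2.06 (adjusted p = 0.0142) and spe-4, a presenilin of spermatocytes, at -6.11 ± 1.68 (adjusted p = 0.0204). With replicate 3 of other cells at late L3 left out, 39 were tested, with 1 higher and 0 lower at late L3, 1 and 2 at early L4, 1 and 4 at late L4 and 1 and 2 in adults. Over all genes that fit called 8.65%, 11.9%, 12.7% and 13.2% at these stages, and the median at late L3 was 1.04. With all 24 libraries, the 1 gene called in adults was spe-5, lower in DTCs at -2.83 ± 0.79 (edgeR, adjusted p = 0.0218).

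Of 16 tested genes that set sperm fate or drive transcription in spermatocytes, 0 were called at late L3, 1 higher at early L4, 1 higher and 1 lower at late L4, and 0 higher and 4 lower in adults. The shares over all genes are those just given, and the larval counts lie near them. The higher gene at both L4 stages was tra-1, the terminal regulator of somatic sex, at 1.42 ± 0.43 (adjusted p = 0.0366) and 1.48 ± 0.43 (adjusted p = 0.0281); the lower one was gld-1, a translational repressor of the germline, at -1.65 ± 0.53 (adjusted p = 0.0458). In adults the lower genes were led by fbf-1 at -1.49 ± 0.37 (adjusted p = 0.0121), fog-2 at -3.87 ± 0.97 (adjusted p = 0.0130) and gld-3 at -1.42 ± 0.43 (adjusted p = 0.0320).

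On the receiving side of MSP signalling, 21 genes of the response to MSP and of oocyte maturation were tested. At late L3 4 were higher and 1 lower in DTCs, at early L4 9 and 1, at late L4 6 and 0, and in adults 5 and 3, beside shares over all genes of 13.4% called at late L3, 9.40% higher at early L4, 9.19% higher at late L4 and 13.3% called in adults. At early L4 the genes of least adjusted p were vpr-1, whose product carries an MSP domain, at 3.48 ± 0.33 (adjusted p = 6.00e-07), gsa-1, a G protein alpha subunit that stimulates cAMP synthesis, at 2.81 ± 0.32 (adjusted p = 4.002e-06), and clr-1, a receptor phosphatase, at 2.70 ± 0.33 (adjusted p = 9.58e-06); acy-4, an adenylyl cyclase of the gonadal sheath, was lower at -5.97 ± 1.44 (adjusted p = 0.00819). The Eph receptor vab-1, which binds MSP on oocytes, was higher by 1.01 ± 0.29 at early L4 (adjusted p = 0.0247) and by 2.85 ± 0.30 at late L4 (adjusted p = 2.74e-06). In adults the lower genes were the innexins inx-14 at -2.13 ± 0.47 (adjusted p = 0.00618) and inx-22 at -1.90 ± 0.49 (adjusted p = 0.0147), and oma-2, an oocyte RNA-binding protein, at -1.61 ± 0.50 (adjusted p = 0.0386).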

How the data were processed

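PolyA RNA of 24 libraries (8 groups of 3) was counted per gene; the authors deposited raw read counts, 1 table of 46778 gene IDs, and all 24 columns were used. Per the submitters' processing notes, FastQC, cutadapt, Bowtie2 and HTSeq were used with the ce11 build; tool versions, strand setting and how multiply mapped reads were handled were not given in the sources used here. Positions come from the WBcel235 annotation of Ensembl release 115, the same assembly.

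From the deposited counts, genes were kept by filterByExpr (16887, all 65 members included), scaled by TMM and fitted with 8 group means in edgeR 4.0.16 under R 4.3.3 (quasi-likelihood F test, Benjamini-Hochberg adjustment per comparison over all genes tested). The same fit without replicate 3 of other cells at late L3 tested 17692 genes. CPM values were computed from the deposited counts and the TMM-scaled library totals. A ratio against 0 counts is a bound with 3 counts over the group; against 1 to 3 counts it has a 95% interval; both cover counting error only. The fit was tested on simulated data. Alternatives were RLE scaling, no filter, DESeq2 1.42.0, only the groups compared, a replicate block and leaving out each library. Same-numbered libraries of DTCs and other cells at late L3 deviated together (correlations 0.160, 0.115 and 0.248, from the data and not the labels); no other compared pair of groups did for all 3 numbers.

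Members and lists were chosen with earlier results of these data known. Given library by library are the 2 members of highest mean CPM in each family; given with tests are these and the 3 called members of lowest adjusted p per comparison and direction. The members set apart by their ratio, msp-65 where it is described by its ratio, and neighbouring genes were chosen after their values were seen. No sequence is printed because the tables used here hold none.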

Additional observations from a re-analysis of the deposited data

Results flagged for a closer look

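DTCs and other cells differed in a step between stages for a few members. Between late L3 and early L4, without replicate 3 of other cells at late L3, the DTC step was the smaller for ssq-1, at a log2 difference of -12.88 ± 1.16 (edgeR, adjusted p = 2.41e-05), for ssq-2, at -7.60 ± 1.37 (adjusted p = 0.0123), and for the ssp-9 copy WBGene00006038, at -7.18 ± 1.31 (adjusted p = 0.0140). Replicates 1 and 2 of other cells held 0, 3 and 0 counts of these genes at late L3, so the fitted values depend on the prior count, and with all 24 libraries none of the 3 was called.

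Between late L4 and adult the DTC step of ssp-37 exceeded that in other cells by 5.70 ± 1.33 with all 24 libraries (adjusted p = 0.0184) and by 5.71 ± 1.27 without replicate 3 of other cells at late L3 (adjusted p = 0.0131).

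For 2 members the DTC libraries lay wholly above other cells at 1 stage and wholly below at another. The share of all genes that do so is not given here, so this count does not set the members apart from other genes. The ssp-9 copy WBGene00006038 was above at early L4 and below at late L4, and the difference of its steps was -2.17 ± 1.54 (adjusted p = 0.849). For msp-74, below at both L4 stages and above in adults on 7 counts against 1, the difference of the steps between early and late L4 was -0.074 ± 1.997 (adjusted p = 1.00); its step into adults was tested and not called.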

How the results depend on the processing

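Counts of members called moved with the processing. In DTCs against other cells the count was 45 at late L3 but 1 with only the groups compared; at early L4 it was 0, but 1 with RLE scaling or no filter, 2 with DESeq2 and 47 with only the groups compared; at late L4 it was 0, but 1 with no filter, 3 with DESeq2 and 41 with only the groups compared; in adults it was 1, and 2 with DESeq2. For DTC steps, the late L3 to early L4 count of 32 was 49 with no filter or DESeq2; that between early and late L4 was 2, and 4 with no filter, 5 with DESeq2 and 8 with only the groups compared; that between late L4 and adult was 2, and 1 with no filter and 17 with only the groups compared. In other cells the first step had 0, and 3 with no filter and 6 with DESeq2; the second 2, and 5 with DESeq2 and 33 with only the groups compared; the last 1, and 2 with RLE scaling, 40 with no filter, 44 with DESeq2 and 35 with only the groups compared. The first difference of steps had 0, and 5 with no filter and 12 with DESeq2. The causes were not tested.

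Leaving out 1 library gave 6 to 50 calls at late L3 (lowest without replicate 3 of other cells at late L3, highest without its replicate 1), 0 to 26 at early L4, 0 to 31 at late L4 and 0 to 2 in adults (0 without DTC adult replicate 1). DTC steps gave 0 to 55 (0 without DTC late L3 replicate 1), 1 to 13 and 1 to 7; steps in other cells 0 to 59, 1 to 13 and 0 to 53 (0 without other adult replicate 2); differences of steps 0 to 3, 0 to 0 and 0 to 1 (0 without DTC late L4 replicate 3). All upper ends except those at late L3, in adults and for the last 2 differences of steps came without replicate 3 of other cells at late L3. Without it 3 late L3 differences turned sign: nspd-1 at 0.33 (adjusted p = 0.921; -9.42 to 0.33 over the left-out libraries), nspd-2 at 3.10 (adjusted p = 0.112; -6.24 to 3.10) and spch-1 at 1.19 (adjusted p = 0.479; -6.76 to 1.19). Of 303 tests of named members under the alternatives, 226 kept direction and side of the threshold, 74 lost the call and 3 turned. For the group means of summed CPM, other scalings and left-out libraries kept 38 values within 1 standard deviation and moved 2 further.

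Over all groups the replicate numbers did not pair the libraries: correlations of same-numbered deviations ran from -0.26 to 0.33 and 9 of 24 libraries correlated best with their own number. All 3 were over 0.1 in 2 of 28 group pairs, of which 1, DTCs and other cells at late L3, is compared here. There the replicate block gave 37 calls, all lower, against 45, and of the members named, nspd-2 lost its call, at -4.39 ± 1.71 (adjusted p = 0.104). With the block the DTC count between late L3 and early L4 was 14, the DTC count between late L4 and adult 1, and the count in other cells between late L4 and adult 0. RLE scaling moved the median of all genes by more than 0.1 in several comparisons, in DTCs against other cells to -0.34 at late L3, -0.63 at early L4 and -0.37 at late L4, against -0.03, -0.35 and -0.14 with TMM. Members under about 50 counts in a group rest on few reads.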

Other observations

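Genes next to the members that departed from the common ratio were looked up after those values were seen, and those printed were picked for their values. Within 10 kb of ssq-2, ssq-1 and ssp-37, 5, 8 and 6 other genes were tested. At early L4 the difference between DTCs and other cells was positive for 2 of 5, 2 of 8 and 2 of 6, with 1 called higher and 0 lower near each. In adults it was positive for 3 of 5, 4 of 8 and 6 of 6, with 0, 0 and 4 called higher and 0, 2 and 0 called lower. Among those going the other way at early L4 were E03H12.7 near ssq-2, at -2.70 ± 1.66 (adjusted p = 0.330), and K07F5.6 and ssp-10 near ssq-1, at -2.31 ± 1.48 (adjusted p = 0.350) and -2.29 ± 1.25 (adjusted p = 0.280). W02D9.6 and W02D9.7, on the same strand as ssp-37 and 367 bases and a further 753 bases from it on chromosome I, shared most of its course. In adults W02D9.7 (12559365 to 12559658) had 11252, 5591 and 3442 CPM in DTC libraries, against 214, 268 and 683 CPM in other cells, a difference of 4.12 ± 0.77 (edgeR, adjusted p = 0.00274). W02D9.6 (12560412 to 12560672) had 609, 467 and 195 CPM in adult DTC libraries and 6.69, 19.1 and 41.7 CPM in other cells, a difference of 4.24 ± 0.86 (adjusted p = 0.00423). Both had 0 counts in DTC libraries at early L4. At late L3 W02D9.7, unlike ssp-37, was called higher in DTCs at 4.63 ± 1.26 (edgeR, adjusted p = 0.0210), on 29 counts against 1. That call was lost without replicate 3 of other cells at late L3 (adjusted p = 0.0922). Also within 10 kb of ssp-37, dpsm-1 was called higher in DTCs at early L4, at 3.05 ± 0.50 (adjusted p = 0.000269).

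Near ssq-2 and the ssp-9 copy WBGene00006038, pes-1, a forkhead gene 5188 bases from ssq-2 (chromosome IV, 5002748 to 5005486), had 9.93, 15.5 and 10.2 CPM in DTC libraries at early L4, against 0, 0 and 0.571 CPM in other cells, and was called higher there at 5.90 ± 1.77 (adjusted p = 0.0416). K07F5.12 lies 2402 bases from ssq-1 (chromosome IV, 9856012 to 9858067). It had 61.7, 73.0 and 55.8 CPM in DTC libraries at early L4 and 5.40, 2.82 and 2.94 CPM in other cells, a difference of 4.09 ± 1.06 (adjusted p = 0.0138), and at late L3 32.4, 29.3 and 29.1 CPM against 1.26, 1.96 and 3.02 CPM, a difference of 3.86 ± 1.05 (adjusted p = 0.0197).

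Across the 24 libraries the level of most members followed the summed msp level, with a median Spearman rho of 0.952 over the 65; the libraries share stages and fractions. The lowest values were those of nsph-4.3 at -0.172, ssp-37 at 0.260, ssq-2 at 0.510 and nsph-1.2 at 0.674.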
